A study of Mus musculus with 2 samples.

Results

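The B cell transcription factor genes described here are Tcf3, Ebf1, Foxo1, Pax5, Pou2f2, Pou2af1, Bcl6, Bach2 and Mef2c, 9 of the 21318 protein-coding genes that could be examined. They were taken from a list of names, and ELF1 peaks were assigned to them when the peak summit lay inside the gene or within 100 kb of its start. In this window lay 92 of the 29086 peaks of the list called optimal, the main list thresholded on reproducibility and built on mm10. ELF1 was mapped by chromatin immunoprecipitation and sequencing (ChIP-seq) in CH12.LX, an immortalized B-cell lymphoma line of the mouse strain B10.H-2aH-4bp/Wts, without any treatment named. The study had 1 group of 2 biological replicates of this single line, so it held no comparison between conditions, and the differences given are between genes or between peaks. The deposited lists give a signal value for each peak and no read counts, so the depth behind a value is unknown and nothing was tested.

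ELF1 belongs to the ETS family of transcription factors, which bind DNA around the core GGAA and are found at many promoters of broadly used genes as well as at enhancers of blood cells. The genes examined encode factors that set up and maintain the B cell program: the E proteins of Tcf3, EBF1 and FOXO1 act early in commitment, PAX5 holds B cell identity, the octamer factor of Pou2f2 and its coactivator from Pou2af1 act in mature B cells, BCL6 is the repressor of germinal centre B cells, BACH2 restrains the plasma cell program, and MEF2C acts downstream of the B cell receptor. Such lineage genes often carry enhancers inside their introns or far from their start. A peak near a gene is a position of ELF1 binding and does not say that the gene is regulated by it.

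The DNA under the summits shows the core motif that the rest of the description refers to. Each line holds the forward strand of mm9 from 50 bases before to 50 bases after a summit of the mm9 peak list, 5′ to 3′, and capitals mark GGAA or TTCC, which is GGAA on the other strand. The first group holds the peaks at the starts of Ebf1 (chr11:44430696-44430796), Pou2f2 (chr7:25917505-25917605) and Tcf3 (chr10:79896658-79896758), the only members with a peak at a start in the mm9 list.
Ebf1 start: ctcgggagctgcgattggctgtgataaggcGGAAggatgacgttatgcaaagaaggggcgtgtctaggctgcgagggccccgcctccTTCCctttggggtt
Pou2f2 start: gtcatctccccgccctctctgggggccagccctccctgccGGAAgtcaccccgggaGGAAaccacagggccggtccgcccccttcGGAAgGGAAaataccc
Tcf3 start: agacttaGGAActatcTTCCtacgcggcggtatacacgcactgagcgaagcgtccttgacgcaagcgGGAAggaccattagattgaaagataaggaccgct
The Pou2f2 sequence holds several cores, the nearest with its centre 7.5 bp from the summit, and another of them is part of CCGGAAGT, a full-length ETS motif. The nearest cores of Ebf1 and Tcf3 were each 18.5 bp away.

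The next sequences lie away from starts and are the strongest such mm9 peak of each member other than Pou2f2 and Tcf3, shown because most of the members' peaks are of this kind. They are from intron 1 of Pax5 (chr4:44719061-44719161), the position just past the end of Ebf1 (chr11:44821698-44821798), a site upstream of Foxo1 (chr3:52001971-52002071), intron 4 of Mef2c (chr13:83748578-83748678), sites downstream of Pou2af1 (chr9:51082961-51083061) and Bcl6 (chr16:23901704-23901804), and a site beyond the end of Bach2 (chr4:32675606-32675706).
Pax5 intron 1: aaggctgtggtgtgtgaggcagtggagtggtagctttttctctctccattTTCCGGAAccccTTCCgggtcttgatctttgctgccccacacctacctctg
Ebf1 end: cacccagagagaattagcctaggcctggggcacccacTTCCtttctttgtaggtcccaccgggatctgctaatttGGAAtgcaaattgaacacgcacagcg
Foxo1 upstream: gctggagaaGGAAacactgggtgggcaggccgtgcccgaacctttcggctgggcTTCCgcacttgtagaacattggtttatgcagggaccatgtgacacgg
Mef2c intron 4: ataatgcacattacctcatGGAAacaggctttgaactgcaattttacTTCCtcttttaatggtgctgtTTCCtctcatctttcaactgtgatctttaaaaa
Pou2af1 downstream: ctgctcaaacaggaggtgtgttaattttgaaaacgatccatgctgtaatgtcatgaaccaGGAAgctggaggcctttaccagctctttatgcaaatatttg
Bcl6 downstream: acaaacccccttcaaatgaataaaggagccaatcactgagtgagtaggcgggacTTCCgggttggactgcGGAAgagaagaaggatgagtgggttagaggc
Bach2 beyond the end: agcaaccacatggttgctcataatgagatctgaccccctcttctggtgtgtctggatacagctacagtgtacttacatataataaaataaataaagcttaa
The Pax5 and Mef2c summits each lay 1.5 bp from the centre of a core. In Pax5 that core is part of TTCCGGAA, which reads the same on both strands. The Bcl6 sequence holds CCGGAAGT on its reverse strand, and the Bach2 sequence holds no core.

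At their own starts, 4 of the 9 genes had an optimal ELF1 summit within 1 kb of the 5′ end: Ebf1, Pou2f2, Tcf3 and Pax5. Over all protein-coding genes the same was true of 39.5%, so the members' share of 44.4% was near the background. Counting every RefSeq start gave the same 4 members against 42.7% of all genes. The signals at these starts ran from 16.0 at Pax5 to 137 at Ebf1, and the median over the 4 members' strongest peaks at the 5′ end was 61.6 against 97.1 over the other genes with such a peak. Foxo1, Pou2af1, Bcl6, Bach2 and Mef2c had none.

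Which members counted as bound at the start depended on the list. The conservative list, the other thresholded list on mm10, gave 3 of 9, against 38.9% of all genes: Ebf1, Pou2f2 and Pou2af1. Taking from each replicate's own list as many of its strongest entries as the optimal list holds, replicate 1 gave 4 of 9 (Ebf1, Pou2f2, Tcf3 and Pou2af1), against 39.9% of all genes. Replicate 2 gave 3 of 9 (Ebf1, Pou2f2 and Tcf3), against 40.2%. Ebf1 and Pou2f2 were bound in each of these lists, and Bcl6, Bach2, Foxo1 and Mef2c in none at the 5′ end. An internal start of Mef2c had an entry of 13.9 among the strongest of replicate 2. Within 2 kb of any RefSeq start, Foxo1 and Mef2c joined the members bound in the optimal list, 6 of 9 against 44.8% of all genes.

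Counted over the gene and its window, starts included, the members as a set held more peaks than the other genes. This did not hold for each of them: 79.5%, 70.8% and 62.5% of other genes had as many window peaks as Bcl6, Bach2 and Mef2c. The share was lower for each other member. All 9 had an optimal summit in the window, where 79.5% of all protein-coding genes did, and 7 of 9 had a summit inside the gene, against 39.1% of all genes. The median was 6 peaks in the window and 2 inside, against 4 and 0 over the other protein-coding genes. The T cell factors and the myeloid and erythroid factors described below also had a median of 6 in the window, with 0 inside. The members are also long, with a median length of 93.4 kb against 17.4 kb, and a longer gene offers more room. Per 100 kb of gene, the members held 3.14 peaks inside and the other genes 1.58. Most of the members' peaks inside were those of Ebf1, Pax5 and Pou2f2, with 17, 11 and 7. Entries of the list that overlap each other were counted separately, in the members as in the other genes. Ebf1, Pax5 and Pou2f2 each held such entries, so the counts are of list entries and not of separate sites. Bach2 with 0.288 per 100 kb, Foxo1 with 1.22, and Pou2af1 and Bcl6 with 0 were below the value of the other genes. The remaining members were above it. With peaks within 1 kb of any annotated start left out, all 9 still had a peak in the window and 7 of 9 inside, against 67.1% and 20.9% of all protein-coding genes of any length. Inside the genes these came to 2.92 peaks per 100 kb in the members and 0.907 in the other genes.

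Of the 92 peaks, 6 lay at a member's own start, 39 elsewhere inside the gene, 18 at the start of another gene and 29 at none of these. The members' peaks were thus less often at any start, 26.1% against 39.6% of all optimal peaks. Their median signal of 40.5 was close to the 39.7 of the whole list, and 51.1% were in the stronger 50% of it. This did not hold in the mm9 list, where the members' 63 peaks had a median of 57.0 against 72.1 over all. Of them, 30.2% were in the stronger 50% of that list, and away from any start 22.0% were, against 35.9% of all such peaks. Of the 10 strongest peaks of the windows, 5 lay at the start of another gene, 1 at a member's own start, 1 inside a member and 3 at none of these.

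**Figure D1:**
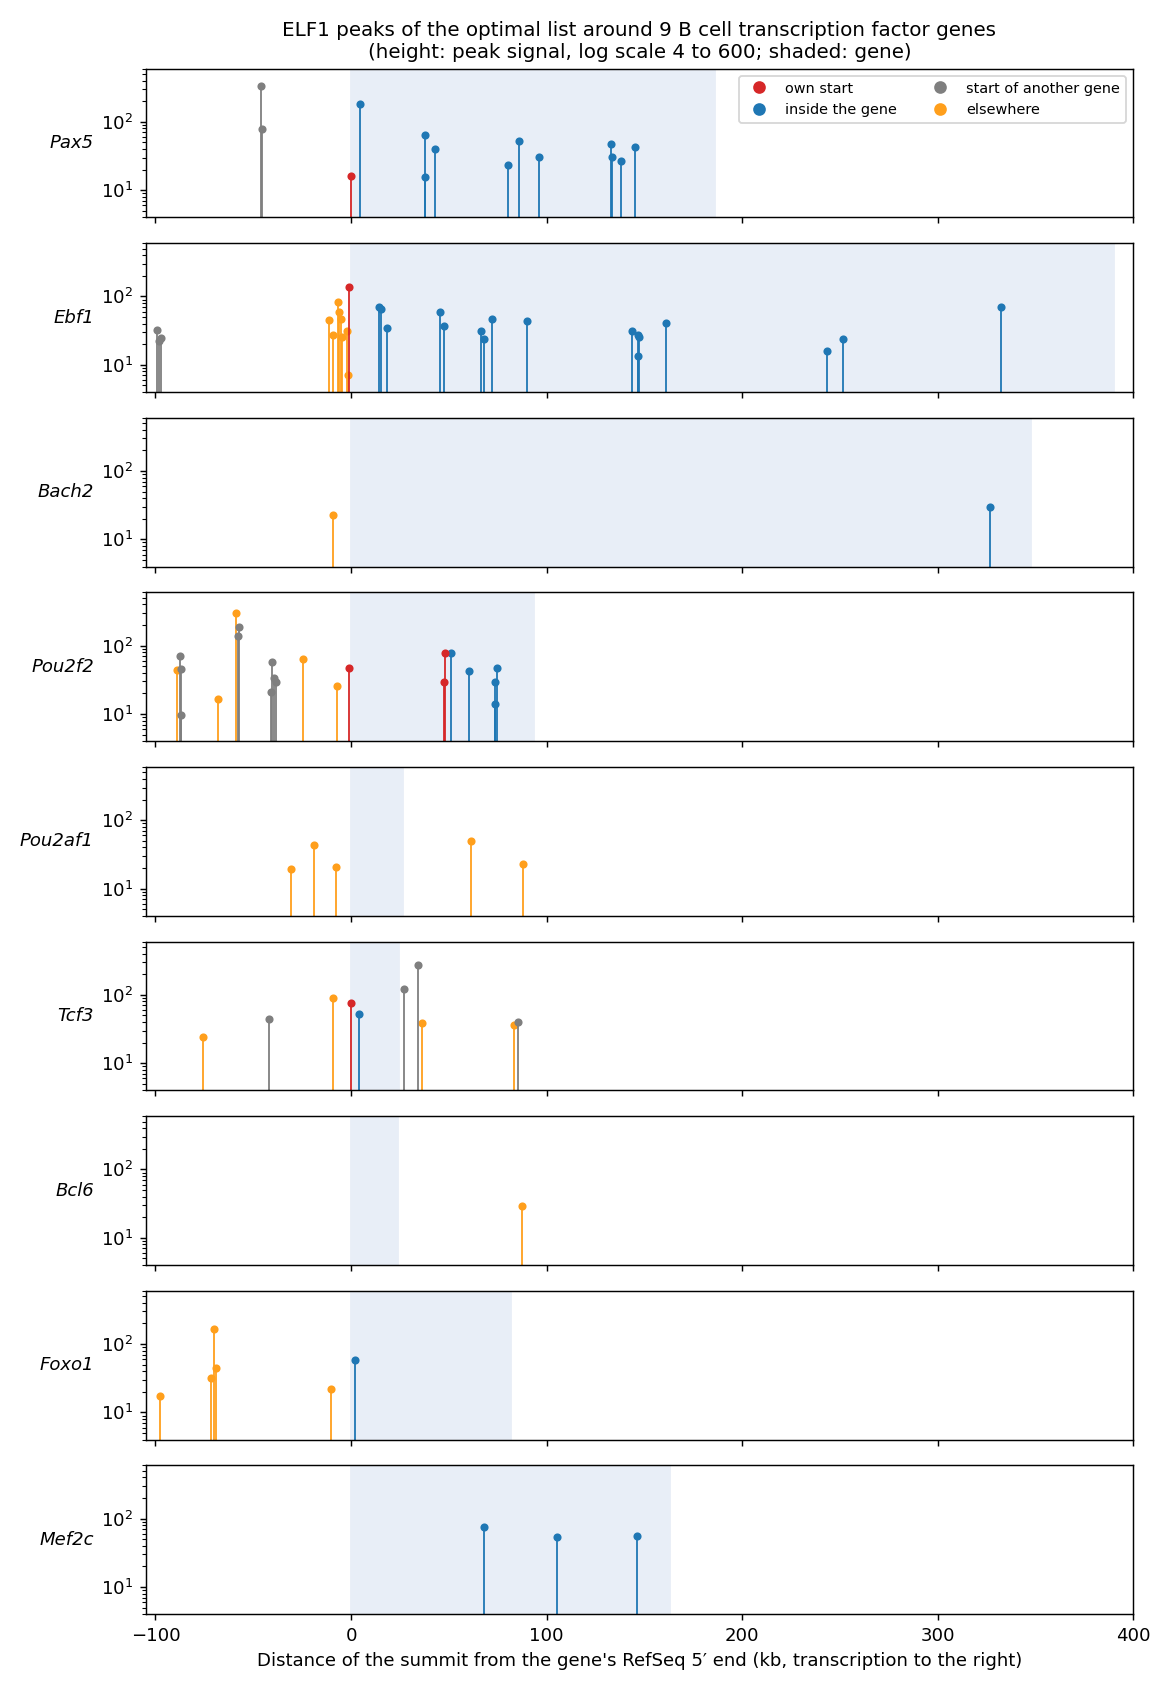
Each row shows 1 gene with its body shaded, and each stem is an optimal ELF1 peak placed by the distance of its summit from the 5′ end in kb, with its signal as height on a log scale and colour for its class. Ebf1 had 29 peaks and Pou2f2 22, while Bcl6 had 1 and Bach2 2, and the highest stems of Pax5 and Tcf3 are grey, at the starts of other genes.

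Tcf3, which encodes E proteins that bind E-box motifs, lies on the minus strand of chr10:80409541-80433976. Its peak at the start had its summit 8 bp inside the gene, with a signal of 76.5 in the optimal list. The replicates differed widely there: within 100 bp of that summit replicate 1 had a signal of 6.43 and replicate 2 had 59.4, a log2 ratio of 3.21. A stronger entry of replicate 1, of 20.5, lay 133 bp from the summit, just beyond the matching distance. Tcf3 was bound at the start in both replicates, while the signal and the summit there were not the same in them.

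The window of Tcf3 held 10 peaks, and 20.1% of other genes had as many. The strongest was at the start of Mbd3, which encodes a methyl-CpG-binding domain protein, with a signal of 272 (136 in replicate 1 and 138 in replicate 2). The next, of 122, was at the start of Uqcr11, a gene for a subunit of respiratory complex III, with 49.2 and 75.6. The third lay 9.25 kb upstream of Tcf3 at no start, with a signal of 89.2 (42.2 and 48.7). Inside Tcf3 a further peak lay 3.94 kb from the 5′ end, with 52.0 (20.2 and 31.7).

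Ebf1, the early B cell factor that acts together with PAX5, lies on the plus strand of chr11:44618100-45008096 and was the member with the most peaks. Its window held 29, a number reached by 0.249% of the other protein-coding genes. Inside its 390 kb lay 17 peaks, and 1.43% of the 911 genes of 50% to 200% of its length had as many. Those at chr11:44764481-44764844, chr11:44764691-44765054 and chr11:44765042-44765405 overlap in a chain, so the 17 are not all separate sites. The signals inside the gene were moderate, from 13.2 to 69.8, and 12 of the 17 had a summit within 100 bp in both replicates.

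The summit at the Ebf1 start lay 851 bp upstream of the RefSeq 5′ end, at chr11:44617205-44617305, with a signal of 137 and rank 3918 in the list. It was 67.9 in replicate 1 and 68.2 in replicate 2, a log2 ratio of 0.01, the closest match of the replicates among the peaks at members' starts. Between 1 and 12 kb upstream followed 8 further peaks, the strongest 6.88 kb from the 5′ end with 82.2 (38.2 and 44.2). Among these 8, the entries at chr11:44615958-44616321 and chr11:44616166-44616529 overlap. Inside the gene the strongest lay 14.2 kb from the 5′ end, with 69.8 (33.6 and 35.8), and 332 kb from it, with 69.1 (26.0 and 42.5).

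The strongest ELF1 peak around Ebf1 lay outside its window. Its summit was 149 bp past the annotated 3′ end, at chr11:45008063-45008426, with a signal of 176 and rank 2850. Replicate 1 had 77.4 and replicate 2 had 95.9, both above the values at the Ebf1 start. The peak is named here because its place was noticed after the values were seen.

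Foxo1, the forkhead factor needed for early B cell genes, lies on the plus strand of chr3:52268337-52350109. No optimal summit lay within 1 kb of its start, and the nearest was 1833 bp inside the gene, with a signal of 57.6 (29.4 in replicate 1 and 31.4 in replicate 2). Its window held 6 peaks, and 40.5% of other genes had as many. The strongest lay 70.2 kb upstream at no annotated start, with 168 and rank 3012. It had 62.5 in replicate 1 and 109 in replicate 2, and weaker peaks flanked it 68.8 kb upstream, with 43.9 (15.9 and 28.1), and 71.8 kb upstream, with 31.3 (24.4 and 7.30).

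These Foxo1 peaks form a group far from the gene in which the strong middle peak was above both flanking ones in each replicate. The peak at 71.8 kb was the higher of the flanks in replicate 1 and the peak at 68.8 kb in replicate 2, so the order of the flanks did not hold across replicates.

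Pax5, whose protein maintains B cell identity, lies on the minus strand of chr4:44524748-44710694. Its peak at the start was the weakest of the members' start peaks, with a signal of 16.0, rank 27074 and a summit 168 bp upstream. Replicate 1 had no summit within 100 bp of it and an entry of 4.25 within 500 bp, and replicate 2 had 8.07. The conservative list had no peak at this start.

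Inside Pax5 lay 11 peaks, and 2.04% of the 2211 genes of similar length had as many. The strongest lay 4460 bp from the 5′ end, at chr4:44706155-44706298, with a signal of 185 and rank 2669. It had 92.3 in replicate 1 and 90.1 in replicate 2, a log2 ratio of -0.03, and it was the strongest peak inside any of the 9 genes. The next inside lay 37.9 kb from the 5′ end, with 64.3 (35.6 and 27.3). In both replicates the signal inside Pax5 was thus far above that at its start.

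The window of Pax5 held 14 peaks, a number reached by 9.99% of the other genes. The strongest lay 45.9 kb upstream at the start of Zcchc7, which encodes a zinc knuckle protein of an RNA surveillance complex. Its signal was 329, with 162 in replicate 1 and 172 in replicate 2. Another peak at that start had 77.5 (51.2 and 31.8).

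Pou2f2, which encodes an octamer-binding factor of mature B cells, lies on the minus strand of chr7:25087350-25180797 and had peaks at both of its RefSeq starts. At the 5′ end the summit lay 941 bp upstream, with a signal of 46.7 (18.2 in replicate 1 and 28.7 in replicate 2). At the internal start, at position 25132460, a summit lay 76 bp upstream, with 78.1 (39.3 and 37.6, a log2 ratio of -0.06). A weaker peak 792 bp upstream of that start had 29.2 (12.4 and 22.6). In each replicate the internal start carried the higher signal.

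The window of Pou2f2 held 22 peaks, a number reached by 1.74% of other genes, and 7 lay inside the gene, where 3.03% of the 4091 genes of similar length had as many. Its strongest peaks belonged to a gene-dense stretch upstream. A peak 58.6 kb upstream, at chr7:25239244-25239497, had a signal of 296 (136 and 159) and no annotated start within 1 kb. Right beside it, at the start of Gsk3a, the gene for a glycogen synthase kinase, lay 2 further peaks. They had 186 (90.2 and 94.1), at chr7:25238049-25238321, and 136 (58.1 and 78.7), at chr7:25238356-25238517. Inside Pou2f2 and away from its starts the strongest, 50.9 kb from the 5′ end, had 77.4.

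Pou2af1, which encodes the coactivator that joins octamer factors on DNA, lies on the plus strand of chr9:51213690-51240079. Its window held 5 optimal peaks, none inside the gene or at its start, and 47.5% of other genes had as many. The strongest lay 61.2 kb from the 5′ end beyond the gene, with 49.3 (18.1 in replicate 1 and 29.5 in replicate 2). The others named by rule lay 18.7 kb upstream, with 43.1 (19.9 and 22.3), and 87.8 kb past the 5′ end, with 22.6 (9.74 and 13.3).

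The lists disagreed on the start of Pou2af1. The conservative list had summits 182 bp upstream, with a signal of 23.0, and 20 bp inside, with 9.80. Replicate 1 had an entry of 12.4 at the start, at rank 21599, and replicate 2 had 11.2, at rank 35246. Both replicates thus held a weak entry at the start of this gene that did not reach the optimal list.

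Bcl6 and Bach2 had the fewest peaks of the members. Bcl6, the gene of the germinal centre repressor, on the minus strand of chr16:23965050-23988866, had 1 peak in its window, 87.2 kb from the 5′ end beyond the gene, with 29.6 (13.5 in replicate 1 and 15.3 in replicate 2). At least 1 window peak was found for 79.5% of other genes. Bach2, the gene of the repressor that restrains the plasma cell program, on the plus strand of chr4:32238413-32586109, had 2, although it is the longest of the members after Ebf1, at 348 kb. They lay 327 kb from the 5′ end inside the gene, with 29.6 (13.8 and 13.6), and 8.98 kb upstream, with 22.9 (13.2 and 9.16).

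Bach2 and Ebf1 are of like length and differed widely: 57.0% of genes of similar length had at least as many peaks inside as Bach2, and 1.43% as many as Ebf1. Mef2c, a MADS-box factor gene on the plus strand of chr13:83504017-83667079, had 3 peaks, all inside. Their signals were 75.9 (30.8 and 44.6), 56.3 (18.9 and 43.8) and 54.6 (17.8 and 33.7), each higher in replicate 2. The strongest lay 1427 bp upstream of an internal RefSeq start, just outside the distance used for a promoter peak, and 23.9% of genes of similar length had as many inside.

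The replicate lists also hold weak entries below the thresholds of the optimal list, and these were read at the starts without an optimal peak. At the 5′ end of Bach2 the strongest entry within 1 kb was 3.43 in replicate 1 and 5.49 in replicate 2. Bcl6 had 3.89 and 7.05. Foxo1 had 5.73 and 12.6, and an internal start of Mef2c had 4.75 and 13.9. In each of these the entry of replicate 2 was the higher. Of its 300000 entries, they ranked 111484 at Bach2, 69087 at Bcl6, 30524 at Foxo1 and 27156 at Mef2c. The ranks in replicate 1 were 240129, 175172, 74551 and 110351. The paired entries were not always at the same position. At Bcl6 they lay 870 bp upstream in replicate 1 and 473 bp inside in replicate 2. At Foxo1 they lay 700 bp inside and 20 bp upstream. By comparison the Ebf1 entries of 67.9 and 68.2 ranked 3382 and 4668.

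**Figure D2:**
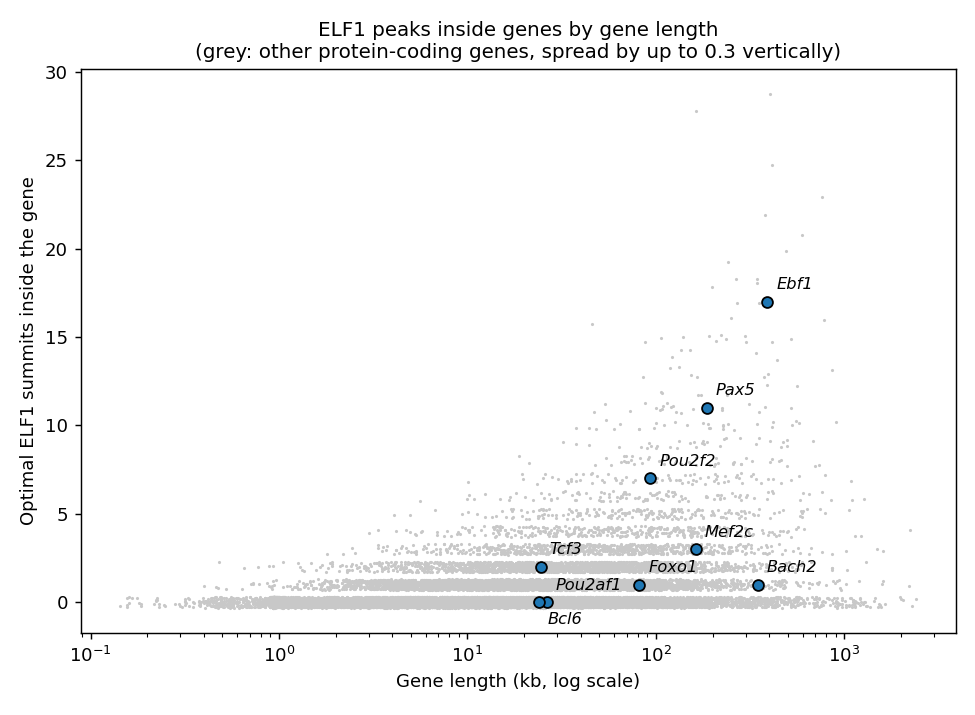
The plot gives the number of optimal ELF1 summits inside each gene against gene length in kb on a log scale, with the 9 members named in blue and the other protein-coding genes in grey. Ebf1 with 17, Pax5 with 11 and Pou2f2 with 7 lie above most genes of their length, while Bach2 with 1, Foxo1 with 1, and Pou2af1 and Bcl6 with 0 lie within the bulk.

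Across both replicates, 76 of the 92 peaks had a summit within 100 bp in each list, 82.6% against 85.4% of all optimal peaks. These relaxed lists reach down to very weak entries. A Foxo1 peak 10.3 kb upstream was matched in replicate 1 by an entry of 3.05 at rank 286951. With only the strongest entries of each replicate, 57 of the 92 had a match in both, and the like share over all peaks was not counted. The matches given here by gene are those of the relaxed lists. Of the others, 7 lacked a match in replicate 1 alone, 6 in replicate 2 alone and 3 in both. The peaks inside Pax5 were matched in 9 of 11 cases, those inside Pou2f2 in 5 of 7, and those inside Mef2c in 3 of 3. Among matched peaks, 53 were higher in replicate 2 and 23 in replicate 1. The same lean was seen over the whole list, where 78.8% were higher in replicate 2. Whether the replicate lists share a common scale is not stated, so these ratios are read beside those of all peaks.

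The median ratio of replicate 2 to replicate 1 was 1.15 over the members' peaks and 1.33 over all optimal peaks, with an SD of the log2 ratio of 0.85 and 0.68. A difference between the replicates of more than 2 on the log2 scale was found in 3 of the 76 members' peaks and in 2.41% of all matched peaks. The Tcf3 start, at 3.21, was one of these 3. The Pou2f2 internal start and the Tcf3 start had nearly equal optimal signals, 78.1 and 76.5, and their order was opposite in the replicates. The start of Ebf1 was above both of them in each replicate.

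**Figure D3:**
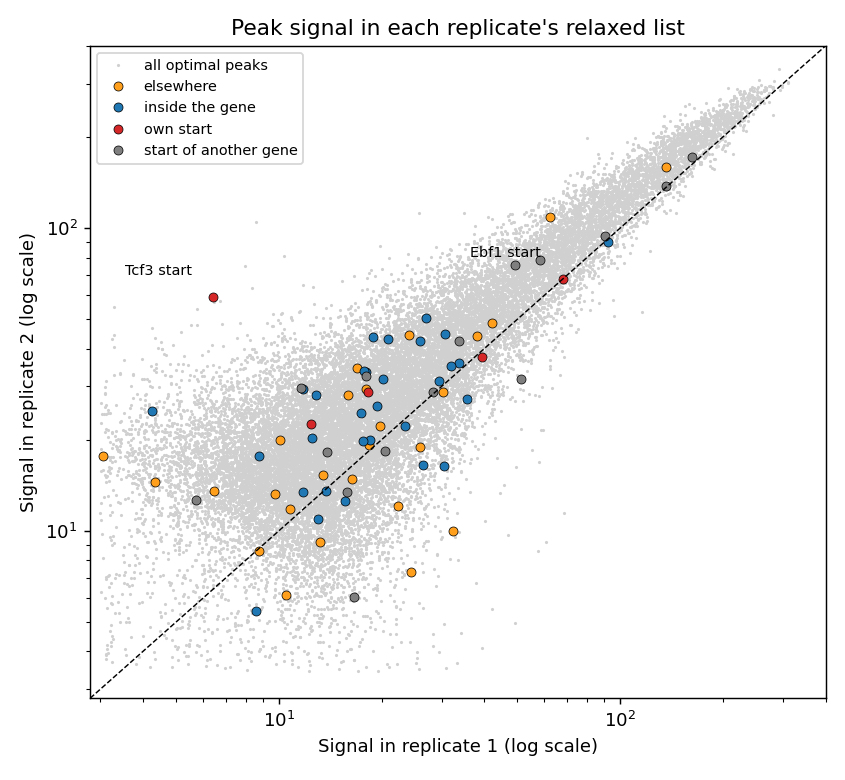
Each point is an optimal peak by its signal in replicate 1 and in replicate 2, both on log scales, with the members' peaks coloured by class, all other peaks in grey and a dashed line of equality. The Ebf1 start lies on the line with 67.9 and 68.2, and the Tcf3 start lies far above it with 6.43 and 59.4.

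The mm9 list, made from both replicates, holds 18804 peaks and was read with all GENCODE M1 transcript starts. It placed 63 peaks in the members' windows, and again each member had at least 1, where 76.2% of all genes did. A peak within 1 kb of a transcript start was found at 3 of 9 members, Ebf1, Pou2f2 and Tcf3, against 36.8% of all genes, and Pax5 had none. Of the 29 summits inside members, 28 lay in introns and 1 in an exon, exon 3 of Ebf1. Ebf1 again had the most peaks, 21 in the window and 14 inside, followed by Pou2f2 with 11 in the window and Tcf3 with 10.

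Coordinates were not converted between builds, and the lists were set side by side through RefSeq promoter sequences that occur once in mm9. Of the 63 mm9 peaks, 56 had an optimal mm10 summit at the same offset from such a start, within 100 bp. All 8 of Pax5, all 4 of Foxo1 and all 2 of Pou2af1 were among them. For Ebf1 it was 18 of 21, and for Mef2c 1 of 2. At Mef2c the offset difference of the same summits changed with the start used, because the distance between its starts differs between the builds. The matched pair differed by 258 bp from the first start and by 99 bp from the last. The other pair differed by 606 and 447 bp, so the rule cannot say whether the lists disagree there. In the other direction, 54 of the 92 optimal peaks had an mm9 summit at the same offset, and the 38 without one had a median signal of 24.4 against 47.0. The undecided Mef2c peak, with 56.3, is counted among the 38. Not all of those 38 were weak: the Mbd3 start in the Tcf3 window, with 272, both Gsk3a peaks in the Pou2f2 window, with 186 and 136, and the strongest Mef2c peak, with 75.9, had no mm9 counterpart.

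With the older transcript models the Ebf1 start peak, with a signal of 189 in the mm9 list, lay 73 bp upstream of a GENCODE start. The displacement of 851 bp given above therefore holds for the RefSeq 5′ end only. A weaker Ebf1 peak, of 37.7, lay in exon 3 and 579 bp from an internal start. Pou2f2 had 91.7 at a summit 48 bp upstream of its 5′ end in that annotation, which is close to the internal start of RefSeq, and 51.8 in intron 4 at 238 bp from another start. Tcf3 had 121 at 316 bp upstream of its start and 54.7 in intron 2 at 957 bp from an internal start.

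The strongest mm9 peaks of each window repeated the split between own and neighbouring genes. At Pax5 they were the Zcchc7 start, with 783, the intron 1 peak, with 242 and 2233 bp from the nearest start, and the other Zcchc7 peak, with 76.2. At Ebf1 they were the peak past the end, with 236, the start, and a peak 6.11 kb upstream, with 115. The Ebf1 end falls in the mm9 window because GENCODE lists a start late in the gene, 96.1 kb away. Foxo1 had 219 at its upstream site, 69.9 in intron 1 and 60.3 at 68.8 kb upstream. The intron 1 peak of Foxo1 lay at the start of another annotated transcript, RP24-337A16.1.

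For Tcf3 the strongest were at the starts of 2310011J03Rik, with 928, and Uqcr11, with 200, before its own start with 121. The 2310011J03Rik peak is in this window through a late GENCODE start, 94.9 kb away. It was 433 in the optimal mm10 list, outside the mm10 window. For Pou2f2 they were at the start of Zfp574, with 138, at its own start, and 72.9 kb upstream, with 84.9. The upstream mm10 peak of 296 had an mm9 counterpart too. It fell outside the mm9 window because the GENCODE 5′ end of Pou2f2 is close to the internal RefSeq start. For Bach2 they were at Mdn1, with 762, which encodes a ribosome assembly factor, and at Casp8ap2, with 258, and only then a site at no start, with 57.0. The Mdn1 and Casp8ap2 peaks are in this window through a late GENCODE start, 82.1 and 40.4 kb away. They were 374 and 181 in the optimal mm10 list, outside the mm10 window. Bach2 itself held 1 peak, in intron 5, with 42.2. Mef2c had 59.9 in intron 4 and 54.0 in intron 7, Pou2af1 had 55.5 and 53.7 outside the gene, and Bcl6 had 43.5. The high values around Bach2 and Tcf3 thus lay at other genes, and the peaks in Bach2, Mef2c and near Bcl6 were below the list's median of 72.1.

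GGAA was searched on both strands within 50 bp of each mm9 summit, and 57 of the members' 63 peaks held it. The share of 90.5% stood beside 92.6% of all mm9 peaks, and the same width taken 500 bp to either side held it in 69.8% and 65.4%. The short core is thus common in any DNA. CGGAA, which contains it, was in 33.3% of the members' peaks and 42.4% of all, and in 7.14% and 7.08% of the flanks. AGGAAG, which also contains it, was in 38.1% and 43.3%, and in 16.7% and 12.2% of the flanks. CCGGAAGT was in 0.79% and 0.19% of the flanks. The full CCGGAAGT was in 6 members' peaks, 9.52% against 8.16%, and a composite of an ETS and an IRF site, GGAA followed by any base and TGAAA, was in 1, or 1.59% against 1.64%.

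Away from any start, where 41 of the members' mm9 peaks lay, AGGAAG was in 41.5% against 57.2% of all peaks of that kind, and CGGAA in 24.4% against 27.6%. The members' summits sat about as close to a core as those of all peaks, with a median distance to its centre of 10.5 bp against 11.5 bp. Within 10 bp were 49.2% against 42.5%, and from 20 to 30 bp 4.76% against 13.5%. Farther cores were more frequent in the members, with 7.94% against 3.45% from 40 to 50 bp and 6.35% against 2.02% from 50 to 60 bp. The E-box CANNTG, the motif of the E proteins of Tcf3, was in 34.9% of the members' peaks and 35.1% of all. It was no more frequent there than in the flanks, with 40.5% and 37.8%. The DNA of the members' peaks had a median GC content of 53.5% against 56.4%. None of these shares was tested, and the members' peaks share their loci.

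**Figure D4:**
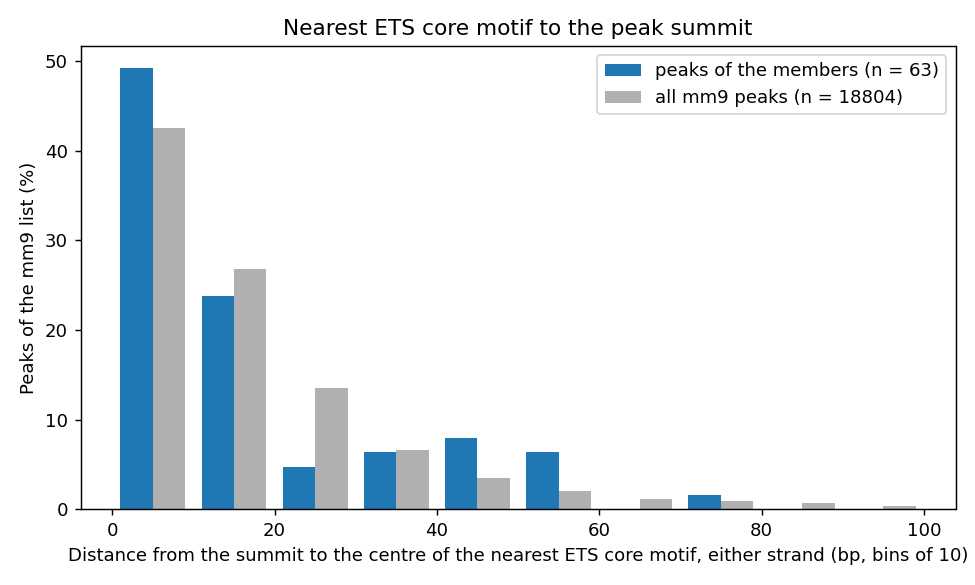
Bars give the percentage of mm9 peaks by the distance in bp from the summit to the centre of the nearest GGAA on either strand, in bins of 10 bp, for the members' 63 peaks (blue) and all 18804 peaks (grey). The first bin holds 49.2% of the members' peaks and 42.5% of all, and the bin from 20 to 30 bp holds 4.76% and 13.5%.

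In the RefSeq promoter sequences of GRCm38.p6, 300 bases around each start, all 9 members were found. GGAA was present in 96.0% of the 32851 promoters and so in nearly any. CCGGAAGT was present in 3.89% of them, and among the members in the promoters of the Pou2f2 internal start and of Tcf3. Both starts had an ELF1 peak, and so did those of Ebf1 and Pax5, whose RefSeq promoters held no CCGGAAGT. At the Tcf3 start CCGGAAGT was not within 50 bp of the mm9 summit. Whether the motif goes with a peak was not tested. The RefSeq promoters of Bcl6 held GGAA too, without a peak in the optimal list.

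Relatives of the members from the same gene families, 17 genes, had a peak at any RefSeq start in 11 cases, or 64.7%, where 42.7% of all protein-coding genes did. They were Foxo3 with 175, Mef2a with 126, Pou2f1 with 91.7, Tcf4 with 64.3, Bcl6b with 57.2, Bach1 with 39.1, Mef2b with 37.0, Mef2d with 35.3, Tcf12 with 33.2, Foxo4 with 29.3 and Pax2 with 24.9. Pou2f3, Foxo6, Pax8, Ebf2, Ebf3 and Ebf4 had none. Counted at the 5′ end alone, 8 of the 17 relatives had a peak, or 47.1% against 39.5% of all genes. In the FOXO, MEF2, BCL6 and BACH families the member of the B cell set lacked a peak at its start while at least 1 relative had one. In the EBF family the reverse held, with a peak at Ebf1 and none at any of its relatives. In the families of Pax5, Pou2f2 and Tcf3, both the member and at least 1 relative had a peak. The contrast in the FOXO and MEF2 families depended on the distance, since Foxo1 and Mef2c had a peak within 2 kb of a RefSeq start.

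Among 20 other transcription factor genes of the B lineage, 13 had a peak at any RefSeq start, or 65% against the same 42.7%. The strongest were at Id2 with 395, Spi1 with 165 and Id3 with 110. Counted at the 5′ end alone, 11 of the 20 had a peak, or 55% against 39.5% of all genes. Id2 and Id3 encode inhibitors of E proteins, and Spi1 encodes PU.1, an ETS factor. Of 8 T cell factors 2 had one, or 25%, Zbtb7b with 29.8 and Gata3 with 29.5, and of 10 myeloid and erythroid factors 3 had one, or 30%, Cebpe with 51.2, Nfe2 with 41.7 and Klf4 with 22.3. None of 12 factors of other tissues had one. Among the B cell markers Cd79b had a peak of 257 at the start, Cd79a of 93.3 and Ms4a1 of 67.4, and Cd22 had none. Of the T cell markers Cd3d, Cd3e, Cd3g, Cd4 and Cd8a, 0 of 5 had one. The members' 4 of 9 lay between these groups. For peaks in the window, the members' median of 6 equalled that of the T cell and of the myeloid and erythroid factors. It was 5 for the family relatives, 10 for the other B lineage factors and 4 for the factors of other tissues. The B cell markers had 11 and the T cell markers 8.

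**Figure D5:**
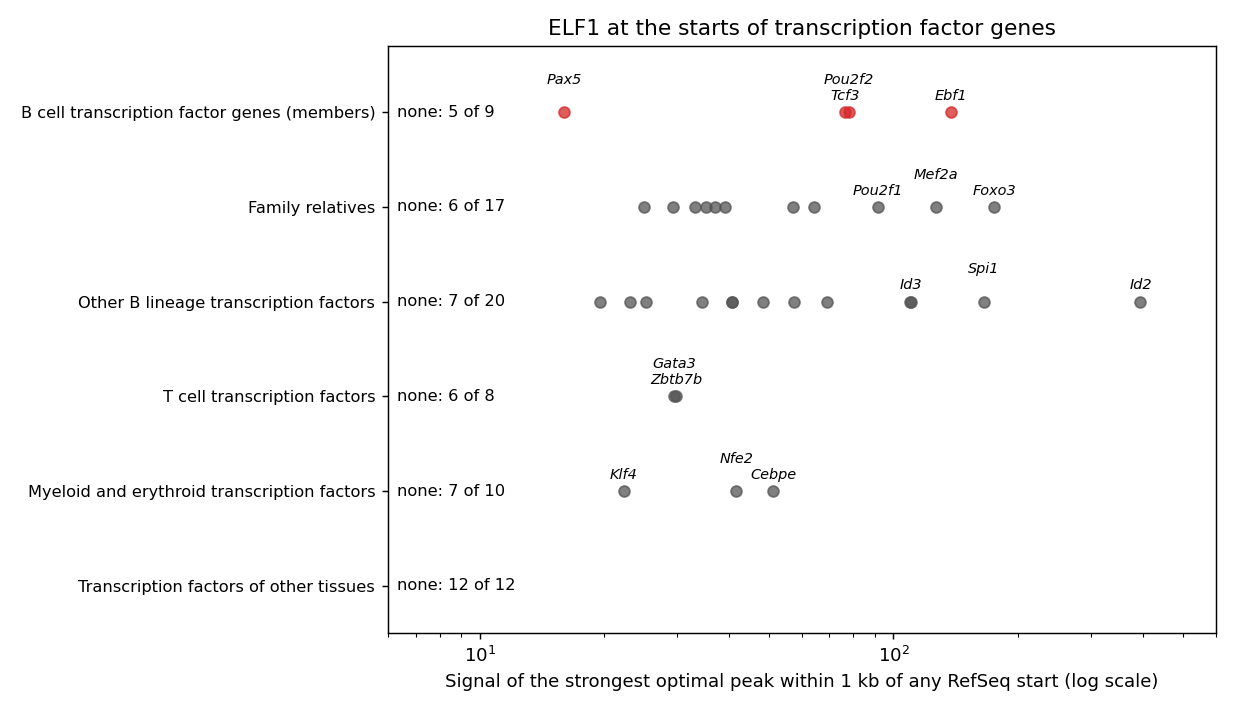
Each point is a gene with an optimal ELF1 peak within 1 kb of any RefSeq start, placed by the signal of the strongest such peak on a log scale, and the text at the left counts the genes without one. The members, in red, run from Pax5 at 16.0 to Ebf1 at 137, with 5 of 9 without a peak, and the highest point of the other B lineage factors is Id2 at 395.

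The protein-coding genes whose pattern was most like that of Ebf1 were Myh9, Arsg and Dnajc7. Likeness was the Euclidean distance over the logarithms of the peaks inside, the other peaks of the window and the signal at the 5′ end, in the optimal list alone. Myh9 had 10 peaks inside, 19 in the window and 131 at its start, at a distance of 0.81. Arsg had 9, 20 and 111, at 0.91, and Dnajc7 had 9, 24 and 167, at 0.94. All 3 had fewer peaks inside than Ebf1, and they are shorter genes, of 37.5 to 100 kb.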

How the data were processed

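ELF1 ChIP-seq was measured in 2 biological replicates of CH12.LX cells, per the labels. The deposited narrowPeak lists give, per the labels and the notes deposited with them, a relaxed list of 300000 entries for each replicate, optimal (29086) and conservative (27399) lists thresholded by the authors with the irreproducible discovery rate on mm10, and an mm9 list from both replicates (18804). The signal value of each peak and the summit offset, a number with no other unit, are the authors'. The scale of the signal is not stated, so signals were ranked within a list, and ratios between the replicate lists compare the deposited values as they stand, beside the same ratios over all peaks. The aligner and peak caller, with versions, were not given in the sources used here.

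Summits were the start plus the offset, and coordinates are 1-based. Genes and starts were from RefSeq GRCm38.p6 for mm10, with strand from the promoter table for 17274 genes and from GENCODE names for 4044, leaving out 582, and from GENCODE M1 for mm9. A replicate matched a peak within 100 bp. Every promoter peak and the 3 strongest other peaks of each member are named, and sequences are the members' strongest mm9 peaks. Sequences at the starts of other genes were replaced by the strongest other peak after the values were seen. The members and lists (family relatives, other B lineage, T cell, myeloid and erythroid and other-tissue factors, B and T cell markers) were chosen with earlier results of these data known. 1 item of these lists is not reported here. Alternatives changed distances, lists, motifs and replicates. Python 3.11.15, numpy 2.4.6, pandas 2.3.3 and matplotlib 3.10.9 were used, and the scripts were tested on simulated data.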

Additional observations from a re-analysis of the deposited data

How the results depend on the processing

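Counted at 1 kb, 4 members had a peak at the 5′ end, and at 500 bp 2 did, Tcf3 and Pax5. They were 3 in the conservative list, where Pou2af1 had one and Pax5 and Tcf3 had none. The 92 window peaks became 42 with gene bounds only and 47 in the stronger 50% of the list, and the 63 of mm9 became 29 and 19. In place of GGAA (57 peaks), CGGAA gave 21 and AGGAAG 24. With the strongest entries of 1 replicate in place of both, the promoter count was 3 to 4 and the window count 99 to 100, and 82 to 83 peaks had a match in the single replicate against 76 in both. Of 33 alternatives for these counts, 26 stayed within 1.5 times the count reported. The 7 that did not are given above. For the comparison lists, 47 of 56 did. Counting any RefSeq start, leaving out peaks at other genes' starts (74 peaks) and the settings of the comparison lists were chosen after seeing the data. No paired analysis was possible because the series has 1 group. With 2 replicates, no counts and an unknown depth, a missing peak says only that none passed the authors' thresholds.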

Other observations

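Several genes of the comparison lists had many optimal ELF1 peaks inside, with or without a peak at a start. Foxp1, which encodes a forkhead factor of early B cells, had 21 peaks inside its 597 kb and none at a start. Ikzf3, the gene of the Ikaros relative Aiolos, had 10 inside and none at a start. Ikzf1, the gene of Ikaros itself, had 15 inside and a peak of 69.1 at a start other than the 5′ end. Runx1, the gene of a RUNX family factor, had 11 inside and a peak of 57.5 at the 5′ end. Tcf4, the E protein relative of Tcf3 from the list of family relatives, had 18 inside its 345 kb and a peak of 64.3 at the 5′ end. By contrast Aff3, of 455 kb, had none inside, and Zeb2, of 134 kb, had 3. These genes were picked from the lists after their values were seen, and nothing was tested.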
